A study of Mus musculus with 4 samples.

Results

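The upper-layer identity genes described here were the homeobox genes *Cux1* and *Cux2*, the POU-domain genes *Pou3f1*, *Pou3f2* and *Pou3f3*, the signalling gene *Inhba*, the nuclear receptor gene *Rorb* and the LIM-only genes *Lmo3* and *Lmo4*. They were picked by gene symbol and are 9 of the 56884 genes counted. All 9 passed the filter on low counts in every comparison.

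Nuclear RNA was measured by single-nucleus RNA sequencing in the medial neocortex of mouse embryos at E16.5. Control embryos were *Sst-Cre/tdTomato*, so that cells of the somatostatin lineage carry Cre and a red reporter. Dnmt1 KO embryos were *Sst-Cre/tdTomato/Dnmt1 loxP2* and additionally carried loxP-flanked alleles of *Dnmt1*, the gene of DNA methyltransferase 1, which Cre deletes in *Sst*-expressing interneurons. Each genotype had 2 libraries, each from 1 mouse. Cre is driven by *Sst* in both genotypes, and the nuclei compared here had no transcript of *Gad1* or *Gad2*, the genes of GABA synthesis in interneurons. Recombined cells were not identified.

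Upper cortical layers are made of late-born excitatory neurons that descend from radial glia, many by way of intermediate progenitors, and that migrate past the deep-layer neurons born before them. CUX and POU3F proteins are transcription factors of these neurons and of the progenitors that give rise to them, and the POU3F proteins can act in place of one another in neuron production and migration. RORB is a transcription factor best known from the granular layer 4, and LMO proteins carry no DNA-binding domain of their own and bridge other transcription factors.

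In all, 29656 barcodes with 1500 to 60000 transcripts were retained, of which 24334 had no *Gad1* or *Gad2* transcript. Excitatory nuclei were placed in 4 gates by single transcripts, in this order of priority. The Eomes gate (4065 nuclei) held nuclei with *Eomes*, the gene of intermediate progenitors. The Neurod1 gate (3019 nuclei) held nuclei with *Neurod1*, a gene of newborn neurons. Nuclei with *Neurod2* or *Neurod6*, genes of excitatory neurons, went to the Tle4/Hs3st4 gate (9139 nuclei) where they had *Tle4* or *Hs3st4*, genes of deep-layer neurons, and to the remaining neurons gate (3075 nuclei) where they had neither. None of the 9 genes was used in a gate. Median transcripts per retained nucleus were between 12274 and 12401 in the libraries of batch 1 and 21140 in batch 2, which held control replicate 2 alone. Libraries of batch 1 had 8 sublibraries each, and that of batch 2 had 2. The sample titles name no batch. *Xist* was at 1281 and 1157 CPM (counts per 1000000 transcripts) in replicate 1 of both genotypes and at 4.13 and 0.0887 CPM in replicate 2, so replicate number and sex coincided. *Dnmt1* over all retained nuclei was at 61.8 and 47.5 CPM in the KO libraries and at 59.6 and 56.0 CPM in the controls, replicate 1 first, and the groups overlapped. The libraries shared 0 barcodes.

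The genes that sit lowest in the Dnmt1 KO libraries, together with a CpG-rich gene that does not, are given by the 250 bases before their start. DNMT1 methylates cytosine in CpG, and each CpG is written in capitals. The sequences are from RefSeq on GRCm38.p6, read 5′ to 3′ on the strand of the gene, and 8 of the 9 genes had an entry. *Pou3f1* had none.
Pou3f2 (chr4:22488367-22488616, minus strand): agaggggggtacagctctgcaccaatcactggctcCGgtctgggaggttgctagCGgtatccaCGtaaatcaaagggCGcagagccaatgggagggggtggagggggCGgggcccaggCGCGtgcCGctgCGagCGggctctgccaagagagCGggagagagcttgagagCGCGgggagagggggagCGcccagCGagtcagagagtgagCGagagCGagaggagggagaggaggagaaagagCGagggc
Pou3f3 (chr1:42695518-42695767, plus strand): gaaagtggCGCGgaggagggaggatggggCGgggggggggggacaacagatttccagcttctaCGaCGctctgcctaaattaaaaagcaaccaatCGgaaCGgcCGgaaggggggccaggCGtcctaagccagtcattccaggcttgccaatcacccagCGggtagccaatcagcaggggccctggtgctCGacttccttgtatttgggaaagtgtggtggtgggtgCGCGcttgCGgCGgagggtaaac
Cux1 (chr5:136565982-136566231, minus strand): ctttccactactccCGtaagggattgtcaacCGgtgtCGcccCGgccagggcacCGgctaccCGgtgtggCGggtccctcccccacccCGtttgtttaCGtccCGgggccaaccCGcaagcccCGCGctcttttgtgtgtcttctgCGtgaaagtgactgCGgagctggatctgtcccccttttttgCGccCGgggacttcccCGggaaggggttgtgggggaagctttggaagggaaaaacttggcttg
Cux2 (chr5:122049852-122050101, minus strand, the upstream of its entries): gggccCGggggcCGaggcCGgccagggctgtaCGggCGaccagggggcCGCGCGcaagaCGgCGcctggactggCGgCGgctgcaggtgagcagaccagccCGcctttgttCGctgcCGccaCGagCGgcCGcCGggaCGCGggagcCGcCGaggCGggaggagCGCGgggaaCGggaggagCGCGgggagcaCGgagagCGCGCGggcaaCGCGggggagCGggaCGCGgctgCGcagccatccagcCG
Inhba (chr13:16011601-16011850, plus strand): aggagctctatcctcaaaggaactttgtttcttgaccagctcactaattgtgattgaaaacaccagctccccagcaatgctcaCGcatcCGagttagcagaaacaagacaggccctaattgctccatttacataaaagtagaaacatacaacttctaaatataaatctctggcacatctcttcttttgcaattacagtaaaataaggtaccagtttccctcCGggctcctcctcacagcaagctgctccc
Lmo4 (chr3:144205256-144205505, minus strand, the upstream of its entries): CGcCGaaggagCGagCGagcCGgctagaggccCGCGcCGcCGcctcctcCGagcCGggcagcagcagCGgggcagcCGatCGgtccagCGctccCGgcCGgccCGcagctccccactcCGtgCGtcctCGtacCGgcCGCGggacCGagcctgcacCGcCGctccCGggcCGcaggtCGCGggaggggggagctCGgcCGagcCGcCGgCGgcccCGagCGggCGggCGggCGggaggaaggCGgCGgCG

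The windows held 18 CpG in *Pou3f2*, 15 in *Pou3f3*, 18 in *Cux1*, 40 in *Cux2*, 3 in *Inhba* and 44 in *Lmo4*, against a median of 6 over the 32851 promoter windows of the table. A count as high as that of the printed *Cux2* window was found in 1.31% of all windows, and one as high as that of *Lmo4* in 0.539%. Another entry of *Cux2*, not printed, held 3 CpG, a count that 71.0% of all windows reached. Other entries of *Lmo4* held 25 and 29. The octamer ATTTGCAT, a sequence bound by POU proteins, was in none of the 12 windows of these genes on either strand and in 1.60% of all windows, which says only that these letters are not in the windows. No methylation was measured here.

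The genes differ widely in length. On GRCm39 (GENCODE vM39), *Cux1* spans 319.7 kb of chromosome 5 (136276755 to 136596408) in up to 24 exons and *Cux2* 194 kb of the same chromosome (121994429 to 122188521). *Pou3f1* (chromosome 4, 124550600 to 124554448) and *Pou3f2* (chromosome 4, 22482780 to 22488366) are single-exon genes of 3.85 kb and 5.59 kb, and *Pou3f3* (chromosome 1, 42734085 to 42742336) spans 8.25 kb. *Inhba* (chromosome 13, 16186373 to 16206206) spans 19.8 kb, *Rorb* (chromosome 19, 18907969 to 19088585) 181 kb, *Lmo3* (chromosome 6, 138339124 to 138559309) 220.2 kb and *Lmo4* (chromosome 3, 143894143 to 143911774) 17.6 kb. Nuclear RNA holds introns, so counts of long genes can be raised by their length where reads in introns are counted. Whether they were counted here was not stated. Per kb of gene span the mean level in the remaining neurons gate was 14.7 ± 4.30 CPM (SD, n = 4 libraries) for *Pou3f3* and 11.9 ± 3.92 for *Pou3f2*, and between 2.14 and 2.50 for *Cux1*, *Cux2*, *Pou3f1* and *Lmo4*. *Inhba* was at 1.54 ± 0.766, *Rorb* at 0.877 ± 0.228 and *Lmo3* at 0.209 ± 0.0703 CPM per kb of span. Per kb of span, *Pou3f3* and *Pou3f2* were within their spread of each other and stood above the other genes. The order depends on this scale, since per kb of exon *Cux2* and *Cux1* stood highest, at 38.8 ± 15.2 and 29.6 ± 9.61 CPM (SD, n = 4 libraries), against 15.7 ± 4.59 for *Pou3f3* and 11.9 ± 3.92 for *Pou3f2*.

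**Figure D1:**
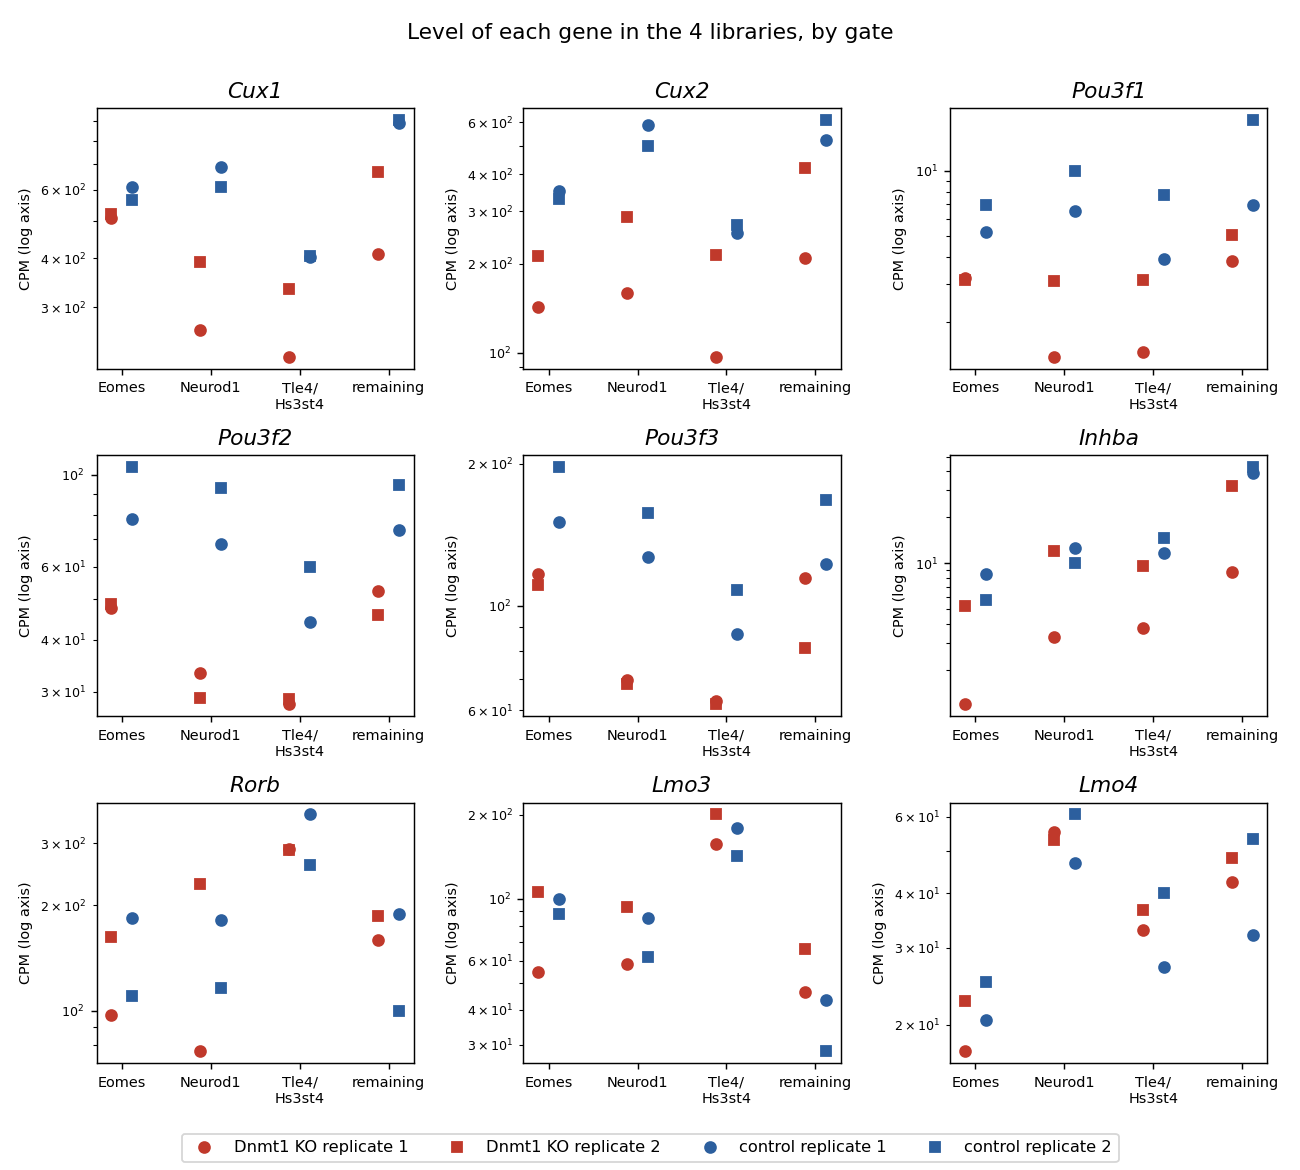
Level of the 9 genes (CPM, log axis) in each library and gate, with Dnmt1 KO in red and control in blue, circles for replicate 1 and squares for replicate 2. The red points of *Pou3f1*, *Pou3f2*, *Pou3f3*, *Cux1* and *Cux2* lie below the blue points in all 4 gates, while those of *Rorb* and *Lmo4* lie among them.

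The first comparison asked how each gene differs between gates of the excitatory lineage. The remaining neurons and Eomes gates were not compared with each other, so the gate in which a gene is highest was not tested. Mean levels over the 4 libraries were 144 and 121 CPM in the Eomes and remaining neurons gates for *Pou3f3*. Those of *Pou3f2* were 69.7 and 66.5 CPM, and those of *Cux1* 551 and 718 CPM. Gates of the same library were compared in 1 edgeR quasi-likelihood fit over the 16 sums of 4 libraries and 4 gates. The library was a block. Adjustment of p-values ran over all genes past the filter on low counts, 15914 of them besides the genes that define gates. Against the Tle4/Hs3st4 gate, all 9 genes passed the threshold in the remaining neurons gate. 7 were higher (9.06% of all genes tested were called higher) and 2, *Rorb* and *Lmo3*, were lower (11.7% were called lower).

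Wherever 4 values stand together, KO replicate 1 is first, KO replicate 2 second, and the controls follow in the same order. *Cux1* was at 409.7, 665, 892 and 905 CPM in remaining neurons, against 223, 335, 403 and 406 CPM in the Tle4/Hs3st4 gate. Every library was higher in remaining neurons, by 1.83 to 2.23 times (log2 fold change 1.03 ± 0.15 SE, edgeR adjusted p = 0.000262). *Cux2*, its paralogue, was at 209, 419, 524 and 609 CPM against 97.0, 213, 254 and 269.8 CPM, and rose by 1.06 ± 0.11 on the log2 scale (edgeR adjusted p = 2.13e-05).

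*Inhba* encodes a subunit of activin, a secreted ligand of the TGF-beta family, and had the largest rise of the 7. Its level was 8.76, 32.0, 39.1 and 42.5 CPM in remaining neurons against 3.81, 9.59, 11.7 and 14.8 CPM in the Tle4/Hs3st4 gate (log2 fold change 1.58 ± 0.14 SE, edgeR adjusted p = 6.15e-06). In nuclei thinned to 5000 transcripts it was detected in 3.07% to 13.8% of remaining neurons and in 0.393% to 2.13% of the nuclei with *Gad1* or *Gad2*, which stand here for a type with little of it. Dnmt1 KO replicate 1 was the lowest library in both gates.

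The POU genes rose by less. *Pou3f1* was at 3.83, 5.03, 6.92 and 17.1 CPM against 1.45, 3.13, 3.93 and 7.75 CPM, a rise of 0.96 ± 0.20 on the log2 scale (edgeR adjusted p = 0.00373). It was counted only 21 times in remaining neurons of Dnmt1 KO replicate 1 and 170 times in those of control replicate 2, the fewest counts of the 9 in this gate. *Pou3f2* (52.6, 45.8, 73.5 and 94.2 CPM against 28.0, 28.7, 44.2 and 60.0 CPM) rose by 0.72 ± 0.10 on the log2 scale (edgeR adjusted p = 0.000188), and *Pou3f3* by 0.58 ± 0.10 (edgeR adjusted p = 0.000786). All 4 libraries were higher for each of the 3 genes.

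The LIM-only genes moved in opposite directions. *Lmo4* was at 42.5, 48.3, 32.1 and 53.4 CPM against 32.9, 36.7, 27.2 and 39.98 CPM, and rose by 0.35 ± 0.08 on the log2 scale (edgeR adjusted p = 0.00897). Without Dnmt1 KO replicate 2 or without control replicate 2, this call was lost (log2 fold change 0.32 and 0.33, edgeR adjusted p = 0.0741 and 0.0686). *Lmo3* was at 46.2, 66.1, 43.4 and 28.4 CPM against 156, 201, 179 and 142 CPM, a log2 fold change of −1.93 ± 0.15 SE (edgeR adjusted p = 1.86e-06). *Rorb* was at 159.5, 186, 189 and 99.6 CPM against 289, 286, 362 and 259 CPM, with a log2 fold change of −0.97 ± 0.19 SE (edgeR adjusted p = 0.00268). Both were lower in remaining neurons in 4 of 4 libraries.

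With the gates drawn on nuclei thinned to 5000 transcripts, or at a minimum of 2 transcripts, all 9 kept their call and direction. Without the library block, 7 of the 9 calls were lost, and those of *Cux1* and *Lmo3* stayed. The deep-layer gate takes the nuclei in which a deep transcript was seen, and nuclei of greater depth pass it more often, with medians of 15162 to 25146 transcripts in the Tle4/Hs3st4 gate against 11988 to 19229 in the remaining neurons gate.

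Of 12 other listed genes of upper-layer neurons, 6 were called higher and 2 lower in the remaining neurons, with a median log2 fold change of 0.41 against 0.010 over all genes tested. *Dok5* had a log2 fold change of 0.96 and *Lhx2* one of 0.76, and those of *Plxnd1* and *Cdh13* were −1.30 and −1.09 (edgeR adjusted p = 0.000297, 0.000236, 0.00207 and 0.000321). Of 9 listed genes of deep-layer neurons, 8 were called lower and 0 higher, with a median of −1.10. The log2 fold changes of *Zfpm2*, *Foxp2* and *Bcl11b* were −3.16, −2.52 and −1.16 (edgeR adjusted p = 3.41e-07, 6.48e-06 and 0.00187). *Rorb* and *Lmo3* were lower in this comparison, as most of the deep-layer list was. The remaining neurons gate was drawn by the absence of *Tle4* and *Hs3st4*. Lower levels of other deep-layer genes there are therefore not independent of how the gate was drawn.

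The Eomes and Neurod1 gates are not pure stages. Markers of migrating neurons (2 genes) summed to 5146, 4322, 5260 and 5790 CPM in Eomes nuclei. In Neurod1 nuclei these markers summed to 4941, 3207, 5971 and 5125 CPM. Between the Neurod1 and the Eomes gate, 4 of the 9 were called. *Lmo4*, *Inhba* and *Cux2* were higher (23.1% of all genes were) and *Pou3f3* was lower (23.9% were), so the share of the 9 that was called was near that of all genes. *Lmo4* was at 55.2, 53.0, 46.9 and 60.7 CPM in Neurod1 nuclei against 17.4, 22.7, 20.6 and 25.1 CPM in Eomes nuclei, a log2 fold change of 1.52 ± 0.09 SE (edgeR adjusted p = 4.75e-08). *Inhba* was higher by 1.11 ± 0.18 and *Cux2* by 0.68 ± 0.11 on the log2 scale (edgeR adjusted p = 0.000188 and 0.0002). *Pou3f3* differed by −0.30 ± 0.10 (edgeR adjusted p = 0.0192). This call held in 7 of 11 alternative settings and was lost, among others, without Dnmt1 KO replicate 2 (log2 fold change −0.23, edgeR adjusted p = 0.143). Without the library block, the call of *Lmo4* stayed and the other calls were lost.

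Between the remaining neurons and the Neurod1 gate, 5 of the 9 were called. *Inhba* was higher by 1.72 ± 0.16, *Pou3f1* by 0.71 ± 0.21, *Cux1* by 0.64 ± 0.15 and *Pou3f2* by 0.39 ± 0.10 on the log2 scale (edgeR adjusted p = 1.15e-05, 0.0377, 0.00883 and 0.0171), where 7.16% of all genes were called higher. *Lmo3* differed by −0.65 ± 0.15 (edgeR adjusted p = 0.0104), where 9.41% were called lower. The calls of *Cux1* and *Pou3f2* were lost without Dnmt1 KO replicate 2 (edgeR adjusted p = 0.0811 and 0.0921), that of *Pou3f1* without control replicate 2 (edgeR adjusted p = 0.161) or Dnmt1 KO replicate 2 (0.149), and that of *Lmo3* without control replicate 1 (0.102). *Pou3f2* was lost without Dnmt1 KO replicate 1 as well (edgeR adjusted p = 0.101). Over 11 alternative settings, *Inhba* was called in 10, *Cux1* in 7, *Pou3f1* in 6 and *Pou3f2* and *Lmo3* in 5 each. *Cux2* (0.32, adjusted p = 0.068), *Pou3f3* (0.30, adjusted p = 0.0505), *Lmo4* (−0.24, adjusted p = 0.0753) and *Rorb* (0.17, adjusted p = 0.624) missed the threshold. Of the 11 alternative settings, *Cux2* passed it in 3, *Pou3f3* in 4, *Lmo4* in 1 and *Rorb* in 0. With the gates drawn on nuclei thinned to 5000 transcripts, the calls of *Inhba* and *Pou3f1* stayed, with nuclei of up to 30000 transcripts that of *Inhba* did, and without the library block none did.

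**Figure D2:**
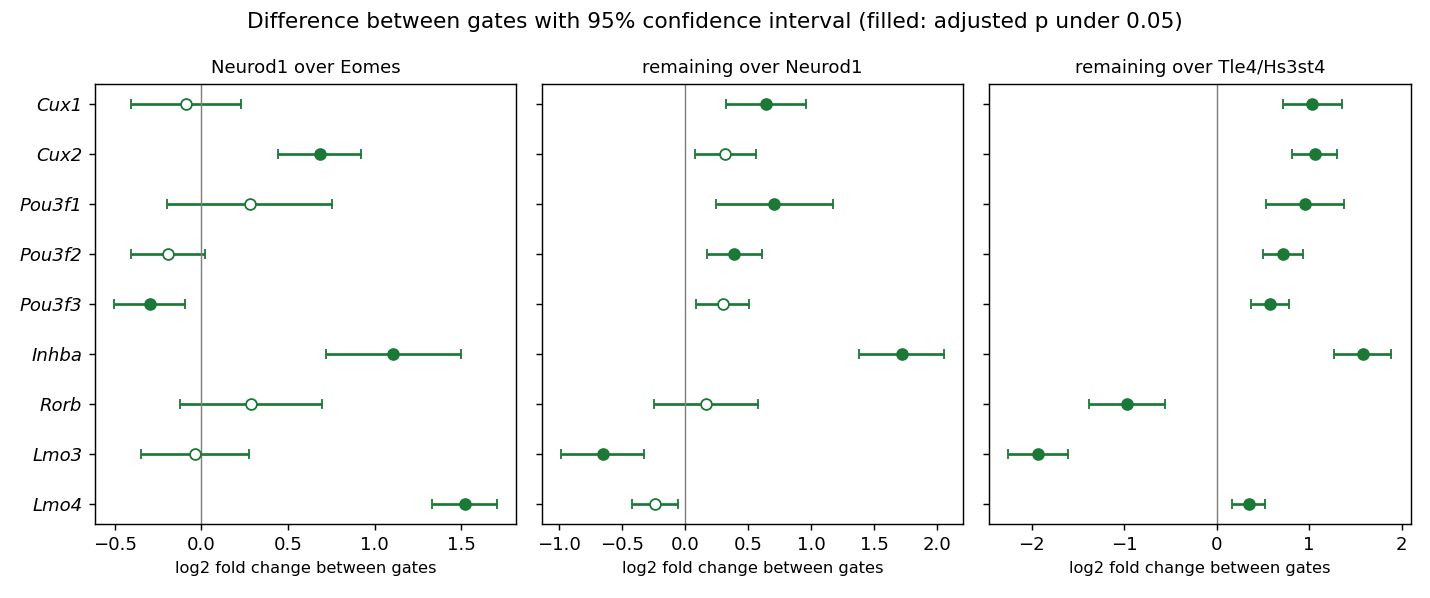
Log2 fold change of each gene between gates with its 95% confidence interval, in the fit over 16 sums, filled where the edgeR adjusted p was under 0.05. In the right panel all 9 points are filled, with *Lmo3* at −1.93 and *Rorb* at −0.97 to the left of 0 and *Inhba* at 1.58 farthest to the right.

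The second comparison asked whether the 9 genes differ between genotypes in nuclei outside the interneurons in which *Sst-Cre* acts. In edgeR, 0 of the 9 passed the threshold in any gate, as did 0% of all genes tested in the Eomes, Neurod1, Tle4/Hs3st4 and remaining neurons gates, although 1081, 1104, 984 and 553 genes had an unadjusted p under 0.05. With 2 libraries in each group, 6, 5, 6 and 6 of the 9 had both Dnmt1 KO libraries below both controls in the Eomes, Neurod1, Tle4/Hs3st4 and remaining neurons gates, against 22.9%, 22.8%, 22.2% and 20.7% of all genes tested. 0 of the 9 had both Dnmt1 KO libraries above both controls in the first 3 gates and 1, *Lmo3*, in the remaining neurons gate, against 16.9%, 16.8%, 15.3% and 13.9% of all genes. *Cux1*, *Cux2* and the 3 POU genes were the ones below in all 4 gates, and *Inhba* was below in all but the Neurod1 gate. The gates hold nuclei of the same embryos and libraries, so agreement between gates is not independent evidence. The exact permutation p of 2 against 2 libraries cannot go below 0.333.

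*Pou3f2* and *Pou3f3* shared the smallest adjusted p of the 9 genes. In Neurod1 nuclei *Pou3f2* was at 33.3 and 29.0 CPM in the KO libraries and at 67.9 and 93.0 CPM in the controls, replicate 1 first, and both Dnmt1 KO libraries lay below both controls. This gave a log2 fold change of −1.36 ± 0.19 SE (95% interval −1.83 to −0.88, edgeR adjusted p = 0.296). In nuclei thinned to 5000 transcripts it was detected in 17.5% and 13.1% of KO nuclei, against 26.8% and 37.9% of control nuclei of this gate. In remaining neurons it differed by −0.75 ± 0.18 SE on the log2 scale (edgeR adjusted p = 0.956), from 52.6 and 45.8 CPM against 73.5 and 94.2 CPM.

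*Pou3f3* was at 69.6 and 68.1 CPM in Neurod1 nuclei of the KO libraries, against 127 and 157 CPM in the controls, a log2 fold change of −1.03 ± 0.14 SE (edgeR adjusted p = 0.296), and at 114 and 81.5 CPM against 122 and 168 CPM in remaining neurons (−0.55 ± 0.24 SE, edgeR adjusted p = 0.956). *Pou3f1* was at 1.38 and 3.08 CPM against 6.51 and 10.0 CPM in Neurod1 nuclei (−1.79 ± 0.42 SE, edgeR adjusted p = 0.5). All 3 POU genes were lower in both Dnmt1 KO libraries than in both controls in each gate, and the Dnmt1 KO libraries were close to each other for *Pou3f2* and *Pou3f3* in the Eomes, Neurod1 and Tle4/Hs3st4 gates.

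For the CUX genes the 2 KO libraries were far apart, except for *Cux1* in the Eomes gate. *Cux1* in remaining neurons had 409.7 CPM in KO replicate 1 but 665 CPM in KO replicate 2, against 892 and 905 CPM in controls (log2 fold change −0.71 ± 0.26 SE, edgeR adjusted p = 0.956). *Cux2* was at 209 and 419 CPM against 524 and 609 CPM (−0.82 ± 0.35 SE, edgeR adjusted p = 0.956). In Neurod1 nuclei *Cux2* was at 160 and 287 CPM against 589 and 497 CPM, a log2 fold change of −1.26 ± 0.29 SE (edgeR adjusted p = 0.495), and *Cux1* at 262 and 391 CPM against 687 and 609.9 CPM (−0.97 ± 0.22 SE, edgeR adjusted p = 0.484). In the Eomes gate the difference in *Cux1* was small, at 507 and 521 CPM against 609.9 and 566 CPM (−0.18 ± 0.12 SE, edgeR adjusted p = 0.77).

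*Inhba* was dominated by Dnmt1 KO replicate 1. In remaining neurons it was at 8.76 CPM there, while KO replicate 2 had 32.0 CPM, with 39.1 and 42.5 CPM in the controls (log2 fold change −0.91 ± 0.56 SE, edgeR adjusted p = 0.956). In the Neurod1 gate the groups overlapped (3.29 and 12 CPM against 12.5 and 10.0 CPM), and without Dnmt1 KO replicate 1 the log2 fold change turned from −0.47 to 0.12.

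*Rorb*, *Lmo3* and *Lmo4* showed no common direction. *Rorb* overlapped in all 4 gates and its log2 fold changes were between −0.17 and 0.29. *Lmo4* overlapped as well, with 42.5 and 48.3 CPM against 32.1 and 53.4 CPM in remaining neurons (0.11 ± 0.27 SE, edgeR adjusted p = 0.985). *Lmo3* overlapped in 3 gates and was higher in both Dnmt1 KO libraries in remaining neurons, at 46.2 and 66.1 CPM against 43.4 and 28.4 CPM (0.68 ± 0.28 SE, 95% interval −0.03 to 1.39, edgeR adjusted p = 0.956). Dnmt1 KO replicate 1 and control replicate 1 were separated by less than the gap between the controls.

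**Figure D3:**
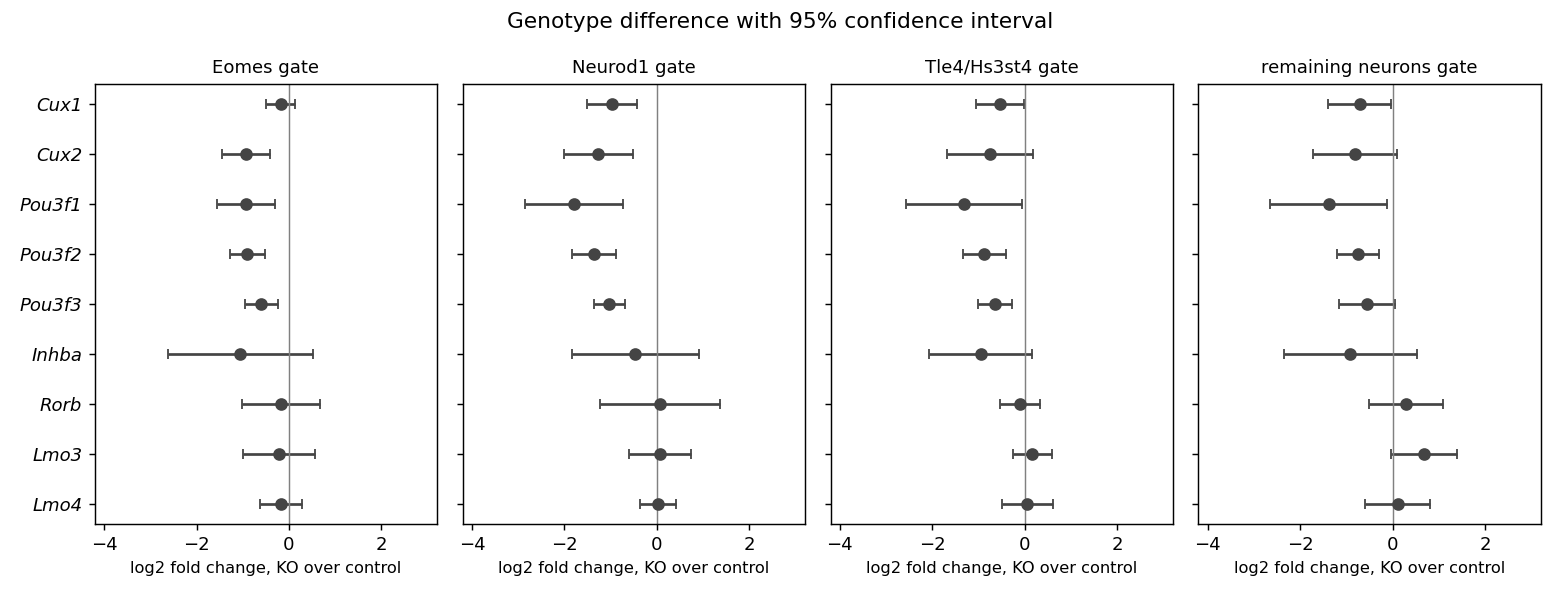
Log2 fold change of each gene between Dnmt1 KO and control (2 libraries each) with its 95% confidence interval in the 4 gates. Intervals of *Pou3f2* lie left of 0 in all 4 gates, and none of the values passed the edgeR threshold after adjustment over all genes.

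Other tools called some of these differences. DESeq2 called *Pou3f2* lower in the Eomes, Neurod1 and Tle4/Hs3st4 gates (log2 fold changes −0.88, −1.35 and −0.85, DESeq2 adjusted p = 0.0116, 4.32e-05 and 0.0417), *Cux2* in the Eomes and Neurod1 gates (−0.90 and −1.25, DESeq2 adjusted p = 0.0249 and 0.00688) and *Cux1* and *Pou3f3* in the Neurod1 gate (−0.96 and −1.02, DESeq2 adjusted p = 0.0166 and 0.000406). DESeq2 called 0.456%, 0.668%, 0.255% and 0.0433% of all genes in the Eomes, Neurod1, Tle4/Hs3st4 and remaining neurons gates. With no filter on low counts, edgeR called 4, 5, 6 and 5 of the 9 genes, all lower and all from among *Cux1*, *Cux2*, *Inhba* and the POU genes, against 1.8%, 2.33%, 1.68% and 0.673% of all genes. Without Dnmt1 KO replicate 2, edgeR called *Cux2*, *Inhba*, *Pou3f2* and *Lmo3* lower in the Eomes gate (adjusted p = 0.00492, 0.0219, 0.042 and 0.0392, with 2.86% of all genes called) and *Cux1*, *Cux2*, *Inhba* and the 3 POU genes in the Neurod1 gate (adjusted p = 0.00676 to 0.0338, with 1.43% called). Without Dnmt1 KO replicate 1, it called *Cux2* and *Pou3f2* in the Eomes gate (adjusted p = 0.0427 and 0.0416, with 1.12% called) and *Pou3f2* in the Neurod1 gate (adjusted p = 0.0331, with 0.553% called). The lone Dnmt1 KO library is then assumed to vary as the controls do. Within batch 1, with control replicate 2 left out, the log2 fold change of *Pou3f2* was −0.70, −1.11, −0.61 and −0.54 in the Eomes, Neurod1, Tle4/Hs3st4 and remaining neurons gates (edgeR adjusted p = 1 in each), and control replicate 1 alone then stood for the controls. That of *Pou3f3* in remaining neurons went from −0.55 to −0.29, and those of *Pou3f1* from −1.38 to −0.58 in remaining neurons and from −1.32 to −0.73 in the Tle4/Hs3st4 gate.

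Several measured properties moved with these differences. Short and single-exon genes were lower in Dnmt1 KO as a class. The median log2 fold change of single-exon protein-coding genes other than these 9 was −0.42, −0.33, −0.39 and −0.37 in the Eomes, Neurod1, Tle4/Hs3st4 and remaining neurons gates, and 46.7% to 48.2% of them had both Dnmt1 KO libraries below both controls. Genes that span under 10 kb had medians of −0.12 to −0.13, and genes of 200 kb and over had medians of 0.063 to 0.13. *Pou3f1* and *Pou3f2* are single-exon genes and *Pou3f3* spans 8.25 kb, while *Cux1* and *Cux2*, of 319.7 kb and 194 kb, went against the direction of genes of their length. The part of gene length in these results was not tested. The upper limit of 60000 transcripts took out 0.159% and 0.757% of the nuclei of the KO libraries, against 2.60% and 8.04% of those of the controls. With no upper limit, edgeR again called 0 genes in each gate (1145, 1005, 1032 and 550 at an unadjusted p under 0.05), and the log2 fold change of *Pou3f2* was −0.85, −1.24, −0.84 and −0.75 in the Eomes, Neurod1, Tle4/Hs3st4 and remaining neurons gates.

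**Figure D4:**
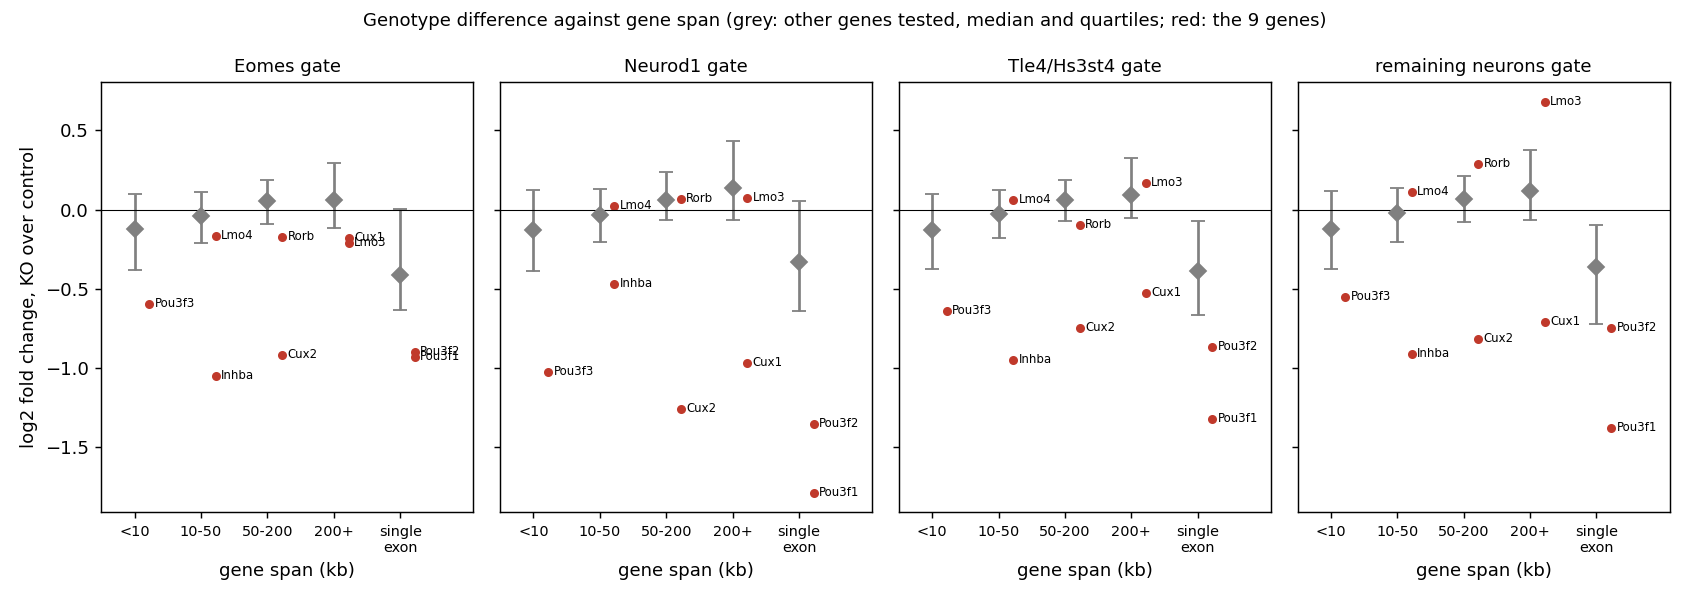
Log2 fold change between genotypes (y axis) by gene span (x axis, kb) in the 4 gates, with the median and quartiles of the other genes tested in grey and the 9 genes in red. The grey medians lie at −0.12 to −0.13 below 10 kb, at 0.063 to 0.13 at 200 kb and over and at −0.33 to −0.42 in single-exon genes, and *Cux1*, *Cux2* and the POU genes lie below the grey medians of their class.

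Some marker lists of other cell types separated the genotypes in the same nuclei. In the Eomes gate, the sums of 4 of 14 marker lists were above both controls in both Dnmt1 KO libraries, and 5 were below. Of all genes tested there, 16.9% were above and 22.9% below. Markers of Cajal-Retzius neurons summed there to 917 and 658 CPM in the KO libraries, against 283 and 530 CPM in the controls. In the Tle4/Hs3st4 gate, 2 of the 14 sums were above (15.3% of all genes were) and 1 was below (22.2%). The Cajal-Retzius sums overlapped there, at 235 and 301 CPM against 398 and 177 CPM. In remaining neurons, 4 of the 14 sums were above (13.9% of all genes were) and 0 were below (20.7%). Markers of hippocampal neurons (3 genes) summed to 1387 and 1399 CPM in remaining neurons of the KO libraries, against 889 and 795 CPM in the controls, with *Zbtb20* at 1193 and 1254 CPM against 693 and 585 CPM. *Zbtb20* carried most of this sum and *Prox1* was above both controls as well, while *Zbtb18* was below both, at 190.0 and 141 CPM against 192 and 208 CPM. Markers of Cajal-Retzius neurons (4 genes) summed to 168 and 46.0 CPM against 17.3 and 16 CPM, with all 4 above both controls, none at 0 in all libraries and *Reln* at 164 and 43.5 CPM against 16.6 and 15.6 CPM. In Neurod1 nuclei the hippocampal markers summed to 4307 to 5456 CPM in Dnmt1 KO and 2825 to 3347 CPM in controls, where *Zbtb20* was above both controls, *Zbtb18* below both and *Prox1* overlapped the controls. In the same nuclei the Cajal-Retzius markers summed to 248 and 208 CPM against 55.6 and 92.8 CPM, and those of layer 6 (3 genes) to 2698 and 1986 CPM against 1346 and 1245 CPM. *Zfpm2* alone separated the groups among the layer 6 markers (2198 and 1661 CPM against 856 and 852 CPM), while *Foxp2* and *Tbr1* overlapped. Of 14 marker lists, these 3 had sums above both controls in both Dnmt1 KO libraries of the Neurod1 gate. Of all genes tested there, 16.8% were above and 22.8% below. The sums of 4 lists were below both controls. The latter were layer 5 (578 and 689 CPM against 759 and 797 CPM), striatal neurons (2684 and 2755 CPM against 3297 and 3375 CPM), intermediate progenitors (13.1 and 10.2 CPM against 14.7 and 20.4 CPM) and migrating neurons (4941 and 3207 CPM against 5971 and 5125 CPM). Of the 2 genes of the last, *Unc5d* was below both controls in both Dnmt1 KO libraries, and *Sema3c* overlapped them. Of the 4 layer 5 genes, 2 were above both controls in both Dnmt1 KO libraries and 0 were below, against the direction of their sum. Of the 5 striatal genes 1 was above and 1 below, and of the 4 genes of intermediate progenitors 0 were above and 2 below. Markers of choroid plexus (2 genes) summed to 3.47 to 25.0 CPM against 0.907 to 2.77 CPM in remaining neurons. Those of layer 6 summed to 548 and 370 CPM against 337 and 187 CPM in remaining neurons. Of these 3 genes, 1 was above both controls in both Dnmt1 KO libraries and 0 were below. The part of tissue composition in the genotype differences was not tested.

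Whether counting used strand was not stated, so reads of these genes and of antisense genes that overlap them cannot be told apart. *Gm2164*, which overlaps *Pou3f1* on the other strand, was at 43.1 and 118 CPM in Neurod1 nuclei of the KO libraries, against 155 and 237 CPM in the controls, well above *Pou3f1* itself. *Pantr1*, which overlaps *Pou3f3* on the other strand, was at 214 and 206 CPM against 394 and 424 CPM, and *Gm16599* in *Cux1* at 9.03 and 14.9 CPM against 23.1 and 24.6 CPM. Each of the 3 was below both controls in both Dnmt1 KO libraries of this gate, as was the gene it overlaps. So were 22.8% of all genes tested there. *Pantr1* was below both controls in all 4 gates. *Gm16599* was so in all but the Eomes gate (KO 21.2 and 19.6 CPM, controls 16.9 and 23.7 CPM), where *Cux1* was below. *Gm2164* was so in all but the Tle4/Hs3st4 gate (KO 73.9 and 126 CPM, controls 109 and 240 CPM), where *Pou3f1* was below. *Gm20646*, on the strand of *Pou3f3*, was below in Neurod1 nuclei (KO 23.5 and 21.1 CPM, controls 46.1 and 48.2 CPM).

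The other genes of the lists gave 0 calls between genotypes in edgeR. DESeq2 called 1 of them, *Zfpm2* of the deep-layer list, higher in the Eomes and Neurod1 gates (log2 fold changes 0.76 and 1.20, DESeq2 adjusted p = 0.00416 and 6.98e-06). The upper-layer genes had no common direction, with median log2 fold changes of 0.0027, −0.11, 0.064 and 0.089 in the Eomes, Neurod1, Tle4/Hs3st4 and remaining neurons gates. In the remaining neurons gate 11 of the 12 passed the filter on low counts. In turn, 3, 5, 2 and 1 had both Dnmt1 KO libraries below both controls in these gates (22.9%, 22.8%, 22.2% and 20.7% of all genes). In the Neurod1 gate, the largest of the 12 by size were *Plxnd1* (0.92, edgeR adjusted p = 0.749) and *Has2* (0.79, edgeR adjusted p = 0.788). The 9 deep-layer genes had medians of −0.12, −0.061 and 0.048 in the Eomes, Neurod1 and Tle4/Hs3st4 gates and 0.55 in the remaining neurons gate (0.0034 over all genes in the last), there with *Zfpm2* at 1.29 and *Crym* at 1.22 (edgeR adjusted p = 0.956 for both), and 2, 3, 1 and 2 of the 9 were above both controls in both Dnmt1 KO libraries of these gates (16.9%, 16.8%, 15.3% and 13.9% of all genes). In the same order, 4, 1, 2 and 0 were below both controls. Both lists are small and their genes were chosen with results known.

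The third comparison asked whether the genotype difference itself depended on the gate. In the interaction of genotype with the remaining neurons gate against the Tle4/Hs3st4 gate, 0 of the 9 genes were called (0% of 16945 genes tested, with 505 at an unadjusted p under 0.05). *Lmo3* had the largest value, with a genotype difference higher by 0.51 ± 0.13 SE on the log2 scale in remaining neurons (edgeR adjusted p = 1), and *Rorb* followed with 0.43 ± 0.16 (adjusted p = 1). The 6 genes that were lower in most gates had interaction values of −0.21 to 0.09, and those of *Pou3f1*, *Pou3f3* and *Inhba* turned sign when single libraries were left out.

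The share of remaining neurons among remaining and Tle4/Hs3st4 neurons came to 21.3% and 28.0% in the KO libraries, against 27.9% and 19.9% in the controls. The groups overlapped (difference 0.746 percentage points, exact two-sided permutation p = 0.667, smallest possible 0.333), and the direction turned with nuclei thinned to 5000 transcripts (difference −3.93 points) and without control replicate 2 (−3.26 points). Exact 95% binomial intervals were 19.6% to 23.1% and 18.3% to 21.5% for Dnmt1 KO replicate 1 and control replicate 2, and cover counting error only.

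The fourth question was whether the genes occur in the same nuclei. Nuclei were thinned to 5000 transcripts, and the number in which both genes were detected was set against the number expected from the 2 detection rates. In remaining neurons (424, 1334, 711 and 475 nuclei in the 4 libraries) *Cux1* and *Cux2* were found together in 115, 631, 397 and 289 nuclei, against 71.9, 462, 293 and 224 expected. This is 1.29 to 1.60 times the expected number, above 1 in 4 of 4 libraries. *Pou3f2* and *Pou3f3* were together 1.19 to 1.36 times the expected number, and *Cux1* and *Pou3f2* 1.16 to 1.43 times, again in 4 of 4 libraries.

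*Lmo3* stood below the expected number with *Cux1*, *Cux2*, *Pou3f2* and *Pou3f3*, in 4 of 4 libraries each. *Cux2* and *Lmo3* were together in 12, 86, 43 and 21 nuclei against 19.2, 109.6, 62.0 and 32.6 expected, and the ratio was 0.625 to 0.785. *Rorb* and *Lmo4* were together 0.306 to 0.920 times the expected number, on 4, 38, 22 and 6 nuclei. *Lmo4* was below expectation in 4 of 4 libraries with *Cux1*, at 0.670 to 0.837, but on both sides of 1 with *Cux2*, at 0.700 to 1.17. The ratio of *Lmo3* and *Lmo4* to each other was 0.995 to 1.44, above 1 in 3 of 4 libraries. *Cux1* and *Rorb* were at 0.968 to 1.12, on both sides of 1.

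In the Tle4/Hs3st4 gate *Cux1* and *Cux2* were together 1.78 to 2.00 times the expected number, *Pou3f2* and *Pou3f3* 1.56 to 2.00 times, and *Cux2* and *Lmo3* 0.405 to 0.521 times. *Lmo4* differed there, at 1.02 to 1.17 with *Cux2* and 0.917 to 1.03 with *Cux1*. In the Eomes gate the ratio of *Cux1* and *Cux2* was 1.06 to 1.09, where *Cux1* was detected in 81.2% to 84.1% of nuclei, which leaves the ratio little room above 1. Nuclei with many transcripts were cut to the same number, and the ratios are descriptions of 4 libraries whose nuclei share depth and gate. *Pou3f1* pairs rested on few nuclei, and in 1 library 0 nuclei held it together with *Pou3f2*.

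**Figure D5:**
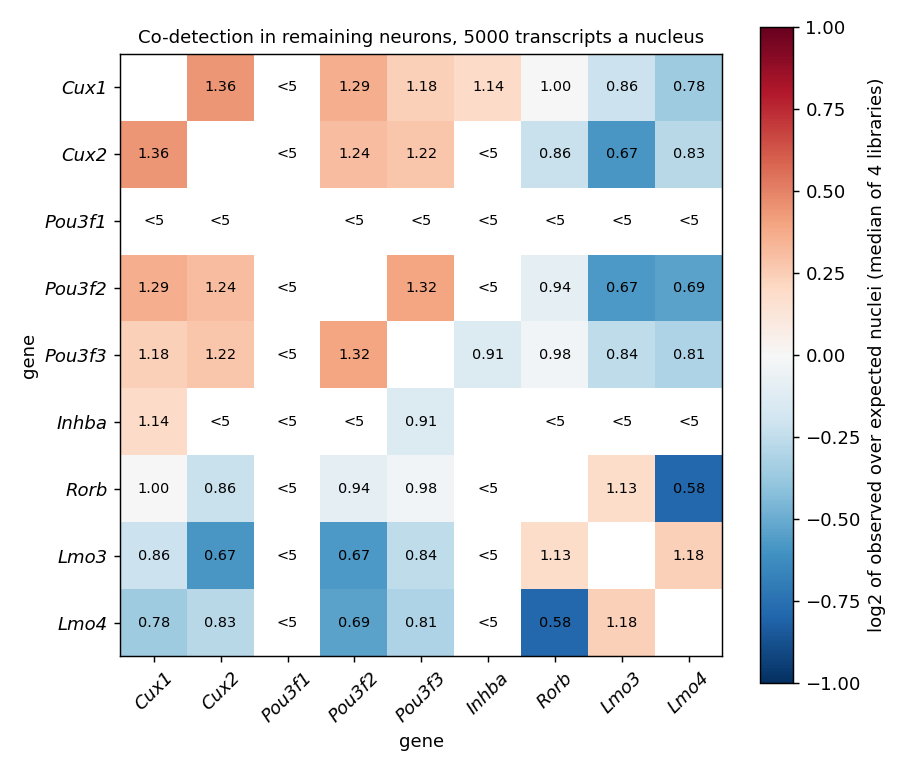
Number of remaining neurons with both genes over the number expected (median of 4 libraries, 5000 transcripts in each nucleus), red above and blue below 1, with "<5" where fewer than 5 were expected in a library. *Cux1* and *Cux2* stand at 1.36 and *Pou3f2* and *Pou3f3* at 1.32, while *Rorb* with *Lmo4* stands at 0.58.

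Across 24 sums of 4 libraries and 6 gates, which adds the gates of *Pax6* or *Slc1a3* and of *Gad1* or *Gad2*, the other genes most like each gene were these. *Cux2* was most like *St8sia2* (Pearson r = 0.907), *Inhba* like *Cdh12* (r = 0.969), *Pou3f3* like *Tmem183a* (r = 0.946) and *Lmo4* like *Iqgap1* (r = 0.924). *Cux1* was most like *Gm16599* (r = 0.95), which overlaps it. *Pou3f2* was most like *Cacybp* (r = 0.899), *Pou3f1* like *Mnt* (r = 0.889), *Lmo3* like *Pdzd2* (r = 0.904) and *Rorb* like *Adamts3* (r = 0.832). Among the 9 themselves, *Pou3f2* and *Pou3f3* were the most alike (r = 0.881). The points share libraries and depth, and no p is given.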

How the data were processed

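Fixed nuclei of 4 libraries received their barcodes in rounds of splitting and pooling (Parse Evercode kit). Trailmaker mapped the reads to GRCm39, and the authors deposited its raw counts, 1 for each transcript of a gene in a barcode, unfiltered and not normalized. The submitters' processing notes name R 4.4.1 and Seurat 5.0.1.9001. The annotation release and the use of strand and introns in counting were not given in the sources used here. The gene lists and the 9 genes were chosen with earlier results of these data known, and named genes were, for each list, those with the largest differences among the called or, with none called, the tested genes.

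The lower and upper limits were 1500 and 60000 transcripts in a barcode, and a limit of 10% on mitochondrial transcripts removed 0. Doublets were neither called nor removed. Counts were summed per library and gate. edgeR 4.0.16 (quasi-likelihood test, TMM factors, filterByExpr, Benjamini-Hochberg adjustment over all genes tested, threshold 0.05) compared genotypes within each gate, gates within libraries and their interaction. Its code was run on counts simulated for the remaining neurons gate, with the same assumed spread for every gene. That run does not show what the test can detect in these data. Genes that define gates were left out of counts. Log2 fold changes carry the SE of the fit. DESeq2 1.42.0, RLE factors, no filter, a replicate block, a batch term, leaving out each library, gates at 2 transcripts or on nuclei thinned to 5000, a filter on mapped reads and an upper limit of 30000 were alternatives. A crossed block and no upper limit were added after the data were seen. One item of the upper-layer list, and an alternative that rested on it, is not reported here. Each library is 1 embryo, and with 2 in each group p-values rest on few degrees of freedom. Replicate numbers did not pair the embryos. Confidence intervals of shares are exact binomial at 95%. Libraries held 209159 to 328873 barcodes and 96455278 to 201141704 transcripts.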

Additional observations from a re-analysis of the deposited data

How the results depend on the processing

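Between genotypes, edgeR called 0 genes in each gate, and the count moved with no low-count filter (528, 667, 553 and 185 genes in the Eomes, Neurod1, Tle4/Hs3st4 and remaining neurons gates), with DESeq2 (71, 97, 46 and 6) and, in the Neurod1 gate, with a batch term (1). Leaving out 1 library gave 0 to 453, 0 to 209 and 0 to 2 genes in the Eomes, Neurod1 and remaining neurons gates, and 0 to 79 in the interaction. Without the library block, the calls between gates fell from 7492, 2636 and 3297 to 4728, 739 and 920 (Neurod1 against Eomes, remaining neurons against Neurod1, and against Tle4/Hs3st4). Leaving out 1 library gave 1586 to 2178 and 1995 to 2881 in the latter 2. The cause was not tested. A replicate block called 0 genes between genotypes in every gate. By *Xist*, same-numbered embryos share sex, but no source used here gives them a shared litter or day, and a crossed pairing in the Tle4/Hs3st4 and remaining neurons gates called 0 and 0. The share of remaining neurons differed by 0.746 points, and by −3.93 (thinned), −3.35 (filter on mapped reads), −1.55 (upper limit 30000) and −3.26 to 4.75 points (1 library left out).

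Log2 fold changes that turned sign were all without a call in the fit given above. With 1 library left out, those between genotypes spanned −0.57 to 0.27 (*Rorb*), −0.76 to 0.19 (*Lmo3*) and −0.36 to 0.0097 (*Lmo4*) in the Eomes gate, −1.75 to 0.12 (*Inhba*), −0.94 to 0.65 (*Rorb*), −0.31 to 0.37 (*Lmo3*) and −0.15 to 0.23 (*Lmo4*) in the Neurod1 gate, −0.30 to 0.15 (*Rorb*), −0.0032 to 0.33 (*Lmo3*) and −0.20 to 0.39 (*Lmo4*) in the Tle4/Hs3st4 gate, and −0.090 to 0.80 (*Rorb*) and −0.22 to 0.54 (*Lmo4*) in remaining neurons. Between gates they spanned −0.24 to 0.15 (*Cux1*) and −0.12 to 0.062 (*Lmo3*) for Neurod1 against Eomes and −0.10 to 0.34 (*Rorb*) for remaining neurons against Neurod1. In the interaction they spanned −0.29 to 0.38 (*Pou3f1*), −0.12 to 0.30 (*Pou3f3*), −0.43 to 0.16 (*Inhba*) and −0.026 to 0.14 (*Lmo4*).

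Under other settings, *Rorb* turned in the Neurod1 gate with the replicate block (−0.098) and the batch term (−0.22), in remaining neurons with the batch term (−0.087) and in the Tle4/Hs3st4 gate with the limit of 30000 (0.11). In the Neurod1 gate *Lmo3* turned with the batch term (−0.14) and gates at 2 transcripts (−0.13), *Rorb* (−0.077) and *Lmo3* (−0.024) with no upper limit, added after the data were seen, and *Lmo4* with gates at 2 (−0.064) and thinned nuclei (−0.095). For Neurod1 against Eomes, *Cux1* turned without the block (0.013) and with the limit of 30000 (0.031), and *Pou3f1* with gates at 2 (−0.20). For remaining neurons against Neurod1, *Lmo4* turned on thinned nuclei (0.0095). In the interaction, *Inhba* (0.019) and *Lmo4* (−0.075) turned with gates at 2, and *Lmo4* on thinned nuclei (−0.043). Thinning to 10000 transcripts moved 9 of the 36 co-detection ratios, and no thinning moved 12. Control replicate 2 alone forms batch 2, so for that library batch and embryo cannot be told apart, and *Pou3f1* and *Inhba* have few counts (as low as 13 and 15 in a library and gate).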

Other observations

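The nuclei outside the 4 gates enter no comparison of genotypes above. *Pou3f2* was at 16.4 and 21.1 CPM in the KO libraries, against 37.4 and 47.0 CPM in the controls (replicate 1 first), in nuclei with *Gad1* or *Gad2*, which hold the interneurons in which *Sst-Cre* acts among others. In nuclei with *Pax6* or *Slc1a3*, genes of radial glia, its levels were 40.2 and 38.1 CPM, against 76.8 and 91.6 CPM. *Pou3f3* was at 65.3 and 66.2 CPM against 98.1 and 120.3 CPM in *Gad1* or *Gad2* nuclei and at 159 and 103 CPM against 187 and 236 CPM in *Pax6* or *Slc1a3* nuclei. Both genes were lower in both Dnmt1 KO libraries than in both controls in these nuclei, and no test was run there. Of the 9 genes, 5 were so in *Gad1* or *Gad2* nuclei and 2 in *Pax6* or *Slc1a3* nuclei, against 22.7% and 24.9% of all genes with at least 10 transcripts in at least 2 libraries, so the share of the 9 was near that of all genes in the latter.

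*Cux2* did not share this order. It was at 865 and 653 CPM in the KO libraries, against 691 and 1124 CPM in the controls, in nuclei with *Gad1* or *Gad2*, its highest levels in any gate, and at 77.9 and 116 CPM against 94.6 and 97.2 CPM in nuclei with *Pax6* or *Slc1a3*, and the groups overlapped in both.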
